A study of Mus musculus with 18 samples.

Results

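The early response of skin without the aryl hydrocarbon receptor (AhR) to mechanical stress was described by comparing the 3 arrays of AhR-/- epidermis taken 6 h after tape stripping (KO 6 h) with the 3 arrays of unstressed AhR-/- epidermis (KO 0 h), 6 of the 18 arrays of the series. Arrays were chosen by their sample titles, and the comparison covers the 23521 of 33793 array rows that name a single gene, which stand for 22180 genes. Total RNA came from epidermal sheets of shaved back skin of female mice of a mixed B6;129 background, with AhR deleted in the germ line (B6.129-AhRtm1Bra/J), so every cell of both KO groups lacks the receptor. AhR+/+ littermates (WT) were handled in the same way at 6 h and 0 h, 3 arrays each, and 24 h groups of both genotypes completed the series. Stripping was done with adhesive film, and the labels give no age for the mice. Epidermal sheets hold keratinocytes with hair follicle openings, Langerhans cells and resident T cells, so a difference in a cell type's transcripts can come from fewer cells of that type or from less RNA per cell, which cannot be told apart in these arrays.

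AhR is a transcription factor that is held in the cytoplasm, moves to the nucleus when it binds a ligand, and drives detoxification genes of the Cyp1 family as well as genes of epidermal differentiation. Tape stripping pulls off the dead cornified layers. Keratinocytes of wounded or stripped epidermis are known to switch on the keratins 6 and 16, secrete interleukin 1 and growth factor ligands, raise protein synthesis, leave quiescence and rebuild the cornified envelope, a shell of cross-linked proteins and lipids that seals the skin.

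The values are on a log scale taken as log2, and each row had been centred on its median over the 18 arrays, so a value states how far an array lies above or below the middle of the series and carries no absolute level. For the same reason the arrays cannot show whether a marker of the labelled tissue was present, only whether it differed; none of the 7 measured keratinocyte defining markers (Krt14, Krt1, Krt10, Trp63, Dsg3, Col17a1 and Lor) passed the test at 6 h, and their median difference was 0.08. Of the 23521 rows, 1172 (4.98%) passed limma's test at an adjusted p under 0.05, 370 of them higher and 802 lower at 6 h. Counted as genes, each by its row with the largest SD, 352 (1.59%) were higher and 784 (3.53%) lower, 1136 (5.12%) in all. Passed or not, 12469 of the 22180 genes lay above 0 and 9711 below it. These shares are the background for each list count below. The KO 6 h and KO 0 h arrays did not overlap in 1169 of the 1172 rows, nor in 24.5% of all rows. Most changes were modest: the median of the rows that rose was 0.55 and of those that fell -0.56, while 41 rows rose and 36 fell by at least 1 log2 unit. The count rests on few arrays. It was 159 without KO 0 h replicate 2, 252 without KO 0 h replicate 3, 528 without KO 6 h replicate 3 and 619 without KO 6 h replicate 2, against 1023 without KO 0 h replicate 1 and 1326 without KO 6 h replicate 1. A number in the labels, with no stated meaning, was treated as a possible batch. Numbers below 3000 belong to KO 6 h replicates 2 and 3 and KO 0 h replicate 1, so that the number and the time point partly coincide. With this split as a block 1081 rows passed, 925 of them among the 1172.

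**Figure D1:**
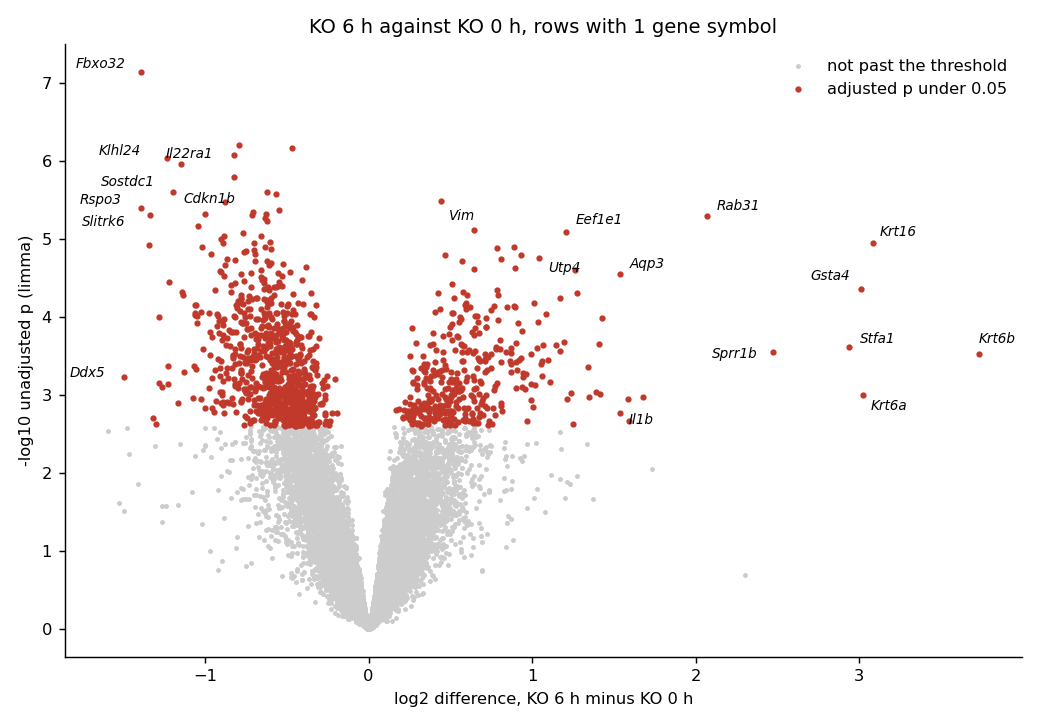
Log2 difference of KO 6 h minus KO 0 h (x axis) against the -log10 of the unadjusted p from limma (y axis) for the 23521 rows with a single gene symbol. Red points passed at an adjusted p under 0.05. The wound keratins, Gsta4, Stfa1 and Sprr1b lie farthest to the right, and Fbxo32 has the smallest p.

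The largest rises included keratins of wounded epidermis. The list of wound keratins had 3 of 9 measured members past the threshold, all higher, against 1.59% of all genes. Krt6b, a keratin of wounded epidermis, had centred values of 3.90, 0.82 and 2.27 in the KO 6 h arrays, against -0.95, -1.53 and -1.72 in the KO 0 h arrays. The groups did not overlap, and the KO 6 h arrays spread widely, with replicate 1 highest. Its difference of 3.73 (SE 0.79, adjusted p = 0.0183), a 13.3-fold rise, was the largest of all named genes that passed. Krt16, the type I keratin that pairs with keratin 6, had 1.94, 0.41 and 1.16 in KO 6 h arrays, against -1.49, -2.58 and -1.67 in KO 0 h arrays, a rise of 3.08 (SE 0.48, adjusted p = 0.00805). Krt6a had 1.76, 0.30 and 0.53 in KO 6 h arrays, against -2.65, -1.65 and -2.19 in KO 0 h arrays, and rose by 3.02 (adjusted p = 0.0319). In both genes every KO 6 h array lay above every KO 0 h array, and replicate 1 was again the highest. Krt6a and Krt6b are near-identical copies, so their probes may read each other's transcripts. Krt17, which is often listed with them, did not pass, with a difference of 0.07 (adjusted p = 0.858).

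**Figure D2:**
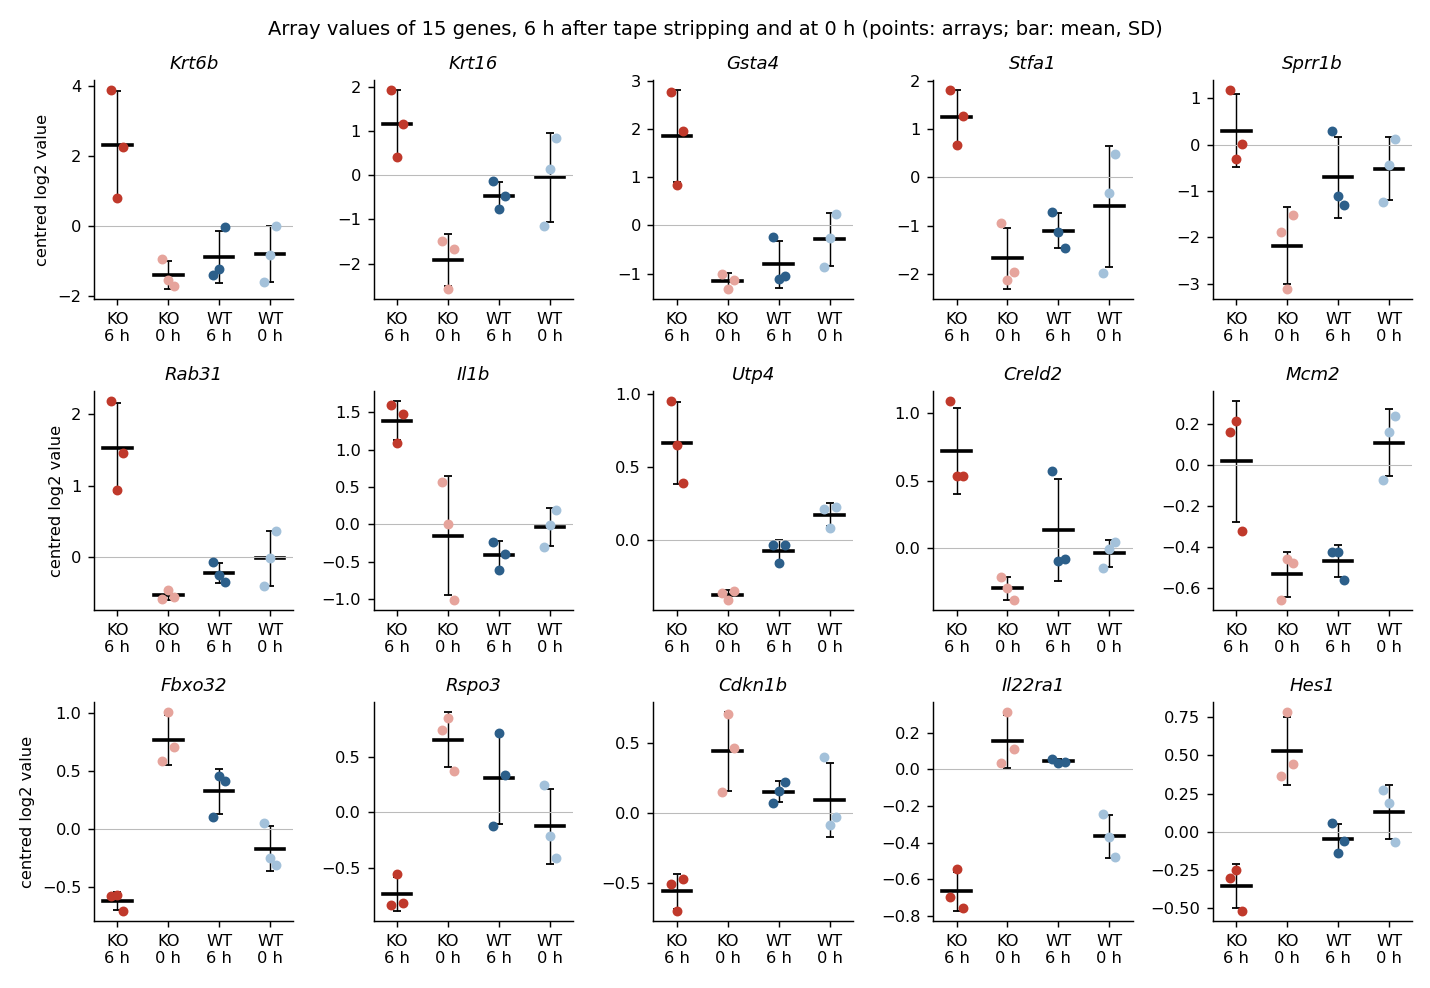
Centred log2 value (y axis) in each array of the KO 6 h, KO 0 h, WT 6 h and WT 0 h groups for 15 genes; points are arrays, bars the mean and SD of 3 arrays. In all 15 genes the KO 6 h arrays lie apart from the KO 0 h arrays, 10 above and 5 below.

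Gsta4, a glutathione transferase that clears products of lipid peroxidation, had 2.76, 0.85 and 1.96 in KO 6 h arrays, against -1.0, -1.32 and -1.14 in KO 0 h arrays. The KO 0 h arrays lay close together and far below all 3 stripped ones. Its rise of 3.01 (SE 0.53, adjusted p = 0.0112) stood alone in its family: of 20 measured glutathione transferases it was the only one higher, and Gstk1, the mitochondrial and peroxisomal class member, fell by 0.61 (adjusted p = 0.0248). Stefin A genes encode inhibitors of cysteine proteases. Stfa1 had 1.82, 0.68 and 1.27 in KO 6 h arrays, against -0.95, -2.13 and -1.98 in KO 0 h arrays, without overlap, and rose by 2.94 (SE 0.61, adjusted p = 0.0168). Stfa3 rose by 1.59 (adjusted p = 0.0342), and the other 9 measured stefin and cystatin genes did not pass. The stefin A copies in mouse are also close in sequence and may share probes.

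Small proline-rich proteins are cornified envelope precursors that keratinocytes add under stress. Sprr1b had 1.19, -0.30 and 0.01 in KO 6 h arrays, against -1.90, -3.12 and -1.52 in KO 0 h arrays. All stripped arrays lay above all unstressed ones, although the KO 0 h arrays themselves differed by over 1 log2 unit. It rose by 2.48 (SE 0.52, adjusted p = 0.0179) and was the only one of 12 measured members to pass; 10 of the 12 lay above 0, with a median of 0.51 against 0.02 over all genes. Sprr2h (difference 0.51, adjusted p = 0.0529) and Sprr1a (0.50, adjusted p = 0.0761) came nearest to the threshold. The promoter of Sprr1b is shown because AP-1, the dimer of Fos and Jun proteins, is a textbook regulator of this family. Of the 10 promoters of the list in RefSeq's GRCm38.p6 table, 8 (80%) hold the letters TGANTCA on either strand in the 250 bases before the start site, against 6.75% of all 32851 promoters in the table. Capitals mark the match at chr3:92438780-92439029, minus strand, written 5′ to 3′.
Sprr1b: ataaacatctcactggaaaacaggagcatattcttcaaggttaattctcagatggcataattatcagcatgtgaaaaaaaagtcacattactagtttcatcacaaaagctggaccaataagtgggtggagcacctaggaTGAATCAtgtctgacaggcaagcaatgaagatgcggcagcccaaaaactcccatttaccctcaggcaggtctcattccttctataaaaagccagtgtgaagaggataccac
A match of letters does not show that a factor binds there, and its part in the rise of Sprr1b was not tested.

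Beyond the cornified layer genes, Rab31, a small GTPase of traffic between Golgi and endosomes, had 2.19, 0.94 and 1.47 in KO 6 h arrays, against -0.60, -0.46 and -0.56 in KO 0 h arrays. The unstressed arrays lay close together and every stripped array was far above them. Rab31 rose by 2.07 (SE 0.30, adjusted p = 0.0059). Aqp3, the water and glycerol channel of keratinocytes, had 1.12, 0.29 and 0.51 in KO 6 h arrays, against -1.07, -0.87 and -0.76 in KO 0 h arrays, and rose by 1.54 (SE 0.26, adjusted p = 0.0095). Both kept their call without any one array. Il1b, which encodes the inflammatory cytokine interleukin 1 beta, had 1.59, 1.09 and 1.48 in KO 6 h arrays, against 0.56, 0.00 and -1.02 in KO 0 h arrays. The groups did not overlap, but the unstressed arrays were far more scattered than the stripped ones. Its rise of 1.54 had an adjusted p = 0.0406, and it passed in 1 of the 6 fits that each left out 1 array. Nrg1, a ligand of the ERBB3 and ERBB4 receptors, rose by 1.41 (adjusted p = 0.0164). It was the only one of 19 measured EGFR and ERBB genes to rise, while Erbb3 (difference -0.56, adjusted p = 0.0412) and Lrig1 (-0.63, adjusted p = 0.0171), which damps ERBB signalling, fell.

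Some genes of matrix digestion and cell movement also rose. Of 31 measured matrix proteases and plasminogen genes, 4 rose, against 1.59% of all genes, and 1 fell, against 3.53%. Of the 31, 17 lay above 0, where 12469 of all 22180 genes did, and the median was 0.03. Mmp3 (stromelysin 1) rose by 1.42 (adjusted p = 0.0315), Adam8 by 0.65 (adjusted p = 0.0139), Plaur, the urokinase receptor, by 0.64 (adjusted p = 0.0408) and Mmp10 by 0.41 (adjusted p = 0.0406). Mmp2 fell by 0.45 (adjusted p = 0.0361). In the list of cytoskeletal genes of migrating cells, 6 of 36 rose and 1 fell, 31 lay above 0, and the median was 0.30. Tpm2, a tropomyosin, had 0.90, 0.06 and 0.25 in KO 6 h arrays, against -1.12, -1.03 and -0.65 in KO 0 h arrays, and rose by 1.34 (adjusted p = 0.0215). Its stripped arrays were all above 0 and its unstressed arrays all below. Tubb6, a beta tubulin, rose by 1.06 (adjusted p = 0.0247) and Vim (vimentin) by 0.64 (adjusted p = 0.00748), while Stmn1, which takes microtubules apart, fell by 0.72 (adjusted p = 0.0286). The integrin genes Itgb1 and Itgb6 rose by 0.47 (adjusted p = 0.0329) and 0.64 (adjusted p = 0.0331). Other rises were in Klk6, a serine protease of the kallikrein family, by 1.68 (adjusted p = 0.0329), in Capn2, a calpain, by 1.43 (adjusted p = 0.0128), and in Guca2a, the peptide guanylin, by 1.59 (adjusted p = 0.0459). Ptgs2, the inducible cyclooxygenase, rose by 1.35 (adjusted p = 0.0331). Its values were 0.39, -0.05 and -0.40 in KO 6 h arrays, against -1.28, -1.94 and -0.89 in KO 0 h arrays, and the WT arrays, at -0.05, -0.10 and 0.21 at 6 h and 1.03, 0.28 and 0.69 at 0 h, overlapped with the stripped KO arrays or lay above them. Unstressed KO epidermis differed from unstressed WT epidermis by -2.04 (adjusted p = 0.0372).

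The list with the most members that rose was that of genes that make ribosomes. Of 48 measured ribosome biogenesis genes, 16 rose, against 1.59% of all genes, and none fell. Of the 48, 47 lay above 0, where 12469 of all 22180 genes did. The list's median was 0.52 where all genes had 0.02. Utp4, a part of the complex that processes the small subunit, had 0.95, 0.65 and 0.39 in KO 6 h arrays, against -0.37, -0.42 and -0.35 in KO 0 h arrays, and rose by 1.04 (SE 0.17, adjusted p = 0.00852). Nip7, needed for large subunit assembly, had 0.66, 0.55 and 0.70 in KO 6 h arrays, against -0.13, -0.37 and -0.27 in KO 0 h arrays, and rose by 0.89 (SE 0.14, adjusted p = 0.00805). Neither gene had any overlap between groups, and both kept their call without any one array, as did Wdr12, which rose by 0.89 (adjusted p = 0.0122). Gar1, a core protein of the small nucleolar RNA particles that modify ribosomal RNA, rose by 0.66 (adjusted p = 0.0126). The mean over the list was 0.56, 0.17 and 0.19 in KO 6 h arrays, against -0.20, -0.17 and -0.14 in KO 0 h arrays, with replicate 1 well above the other stripped arrays. The unstressed KO arrays lay below the unstressed WT arrays, whose means were 0.01, 0.11 and 0.21, and the list's median difference between KO and WT at 0 h was -0.30.

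Part of the genes that feed protein synthesis also rose. Of 32 measured translation factors and genes of nucleotide, polyamine and amino acid supply, 11 rose, against 1.59% of all genes, and none fell. The list's median was 0.46, with 0.79 for label numbers from 3000 up and 0.32 below. Its mean was 0.52, 0.11 and 0.12 in KO 6 h arrays, against -0.21, -0.25 and -0.16 in KO 0 h arrays. Replicate 1 was again far above the other stripped arrays. Eef1e1, a scaffold of the aminoacyl-tRNA synthetase complex, had 0.98, 0.70 and 0.92 in KO 6 h arrays, against -0.10, -0.30 and -0.64 in KO 0 h arrays, and rose by 1.21 (SE 0.18, adjusted p = 0.00748). Srm (spermidine synthase) rose by 1.20 (adjusted p = 0.0162), Nars (asparaginyl-tRNA synthetase) by 0.80 (adjusted p = 0.0172), Ctps (CTP synthase) by 0.77 (adjusted p = 0.0122) and Slc7a1, a carrier of cationic amino acids, by 0.72 (adjusted p = 0.0139). Mxd4, which competes with MYC for their shared partner MAX, had -0.38, -0.53 and -0.33 in KO 6 h arrays, against 0.28, 0.23 and 0.14 in KO 0 h arrays. It fell by 0.63 (SE 0.10, adjusted p = 0.00805), with all stripped arrays below all unstressed ones. RNA helicases and splicing factors did not share the rise: 1 of 32 rose, 2 fell and their median was -0.23. Of all genes, 1.59% rose and 3.53% fell. Ddx5, an RNA helicase, fell by 1.49 (adjusted p = 0.0248), the largest fall among named genes that passed.

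Folding factors of the endoplasmic reticulum rose in part. Of 28 measured genes of the list, 8 rose, against 1.59% of all genes, and none fell, with a median of 0.14. Creld2, an endoplasmic reticulum protein of secretory stress, had 1.09, 0.53 and 0.53 in KO 6 h arrays, against -0.21, -0.29 and -0.38 in KO 0 h arrays, and rose by 1.01 (SE 0.18, adjusted p = 0.0122). Dnajb11, a co-chaperone, had 0.80, 0.43 and 0.55 in KO 6 h arrays, against -0.39, -0.25 and -0.26 in KO 0 h arrays, and rose by 0.89 (SE 0.15, adjusted p = 0.00923). In both, the groups lay on opposite sides of 0 in every array. Sdf2l1 rose by 1.03 (adjusted p = 0.0171), Hyou1, a large chaperone, by 0.78 (adjusted p = 0.0172), Manf by 0.55 (adjusted p = 0.0151) and Asns (asparagine synthetase) by 0.99 (adjusted p = 0.0344). The central chaperone Hspa5 and the stress factor Ddit3, named here after their values were seen, had differences of -0.14 (adjusted p = 0.68) and 0.00 (adjusted p = 0.996). Promoters of 3 of these genes are shown because 2 known stress elements occur in them. The endoplasmic reticulum stress element, CCAAT and CCACG with 9 bases of any kind between them, on either strand, is in 8 of the list's 25 RefSeq promoters (32%) and in 0.113% of all 32851, counted over the 250 bases before the start site (GRCm38.p6). The letters TGATGNAA, the core of the element that answers to amino acid shortage, are in 3 of the 25 (12%) and in 3.45% of all. Capitals mark the 2 arms of the first element, on the opposite strand in both Creld2 (chr15:88819396-88819645, plus strand) and Calr (chr8:84846932-84847181, minus strand), and the match to the second in Asns (chr6:7693210-7693459, minus strand).
Creld2: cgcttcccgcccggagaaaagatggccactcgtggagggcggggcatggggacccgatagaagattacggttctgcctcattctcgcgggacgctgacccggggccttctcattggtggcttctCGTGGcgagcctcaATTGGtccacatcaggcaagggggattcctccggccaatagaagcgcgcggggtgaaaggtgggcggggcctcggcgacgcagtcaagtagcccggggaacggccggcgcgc
Calr: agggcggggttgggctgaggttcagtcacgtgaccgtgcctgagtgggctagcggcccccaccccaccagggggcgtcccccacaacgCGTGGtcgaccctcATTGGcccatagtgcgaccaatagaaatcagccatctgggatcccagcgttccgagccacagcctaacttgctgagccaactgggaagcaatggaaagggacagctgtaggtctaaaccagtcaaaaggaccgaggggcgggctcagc
Asns: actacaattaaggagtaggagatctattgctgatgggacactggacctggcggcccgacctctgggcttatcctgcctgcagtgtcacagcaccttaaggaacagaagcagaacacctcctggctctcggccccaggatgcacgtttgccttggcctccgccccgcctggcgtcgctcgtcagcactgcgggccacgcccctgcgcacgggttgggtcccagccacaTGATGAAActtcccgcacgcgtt
Calr (calreticulin), chosen for display after its value was seen, rose by 0.35 (adjusted p = 0.0451). Of the 8 genes with the first element Creld2 and Calr passed, where 8 of the list's 28 measured genes and 1.59% of all genes rose. The other 6, Canx, Dnajc3, Hsp90b1, Hspa5, Pdia6 and Syvn1, lay between -0.14 and 0.44. The part of the element in these differences was not tested.

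**Figure D3:**
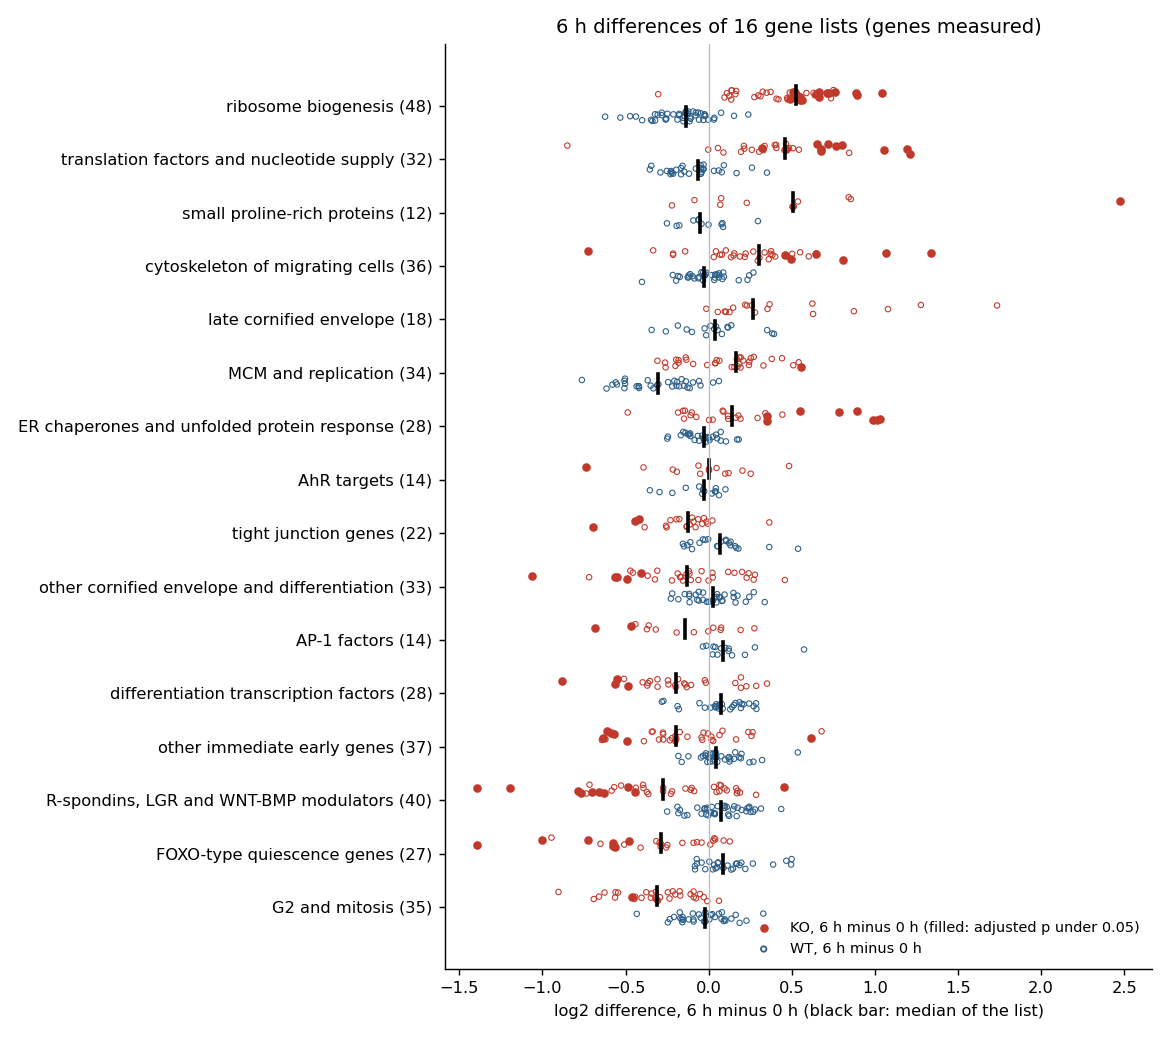
Log2 difference of 6 h minus 0 h (x axis) for each measured gene of 16 lists, with KO in red above WT in blue; filled points passed at an adjusted p under 0.05 and black bars are list medians. In KO, 47 of 48 ribosome biogenesis genes lie above 0 and 34 of 35 G2 and mitosis genes below it, and no WT point is filled.

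Some genes of a list named for FOXO-type quiescence fell, and whether cells left quiescence was not tested. Of 27 measured genes of the FOXO-type quiescence list, 7 fell, none rose and 6 lay above 0, against 3.53% of all genes, with a median of -0.29. Fbxo32, a ubiquitin ligase subunit known from muscle as a FOXO target, had -0.58, -0.57 and -0.71 in KO 6 h arrays, against 0.59, 1.01 and 0.71 in KO 0 h arrays. Both groups were tight and more than 1 log2 unit apart at their nearest arrays. Its fall by 1.39 (SE 0.14, adjusted p = 0.00168) had the smallest p of the whole comparison. Unstressed KO arrays also lay above unstressed WT arrays, with a difference of 0.94 (adjusted p = 0.0219). Cdkn1b, which encodes the cyclin-dependent kinase inhibitor p27, had -0.51, -0.70 and -0.47 in KO 6 h arrays, against 0.15, 0.71 and 0.46 in KO 0 h arrays, and fell by 1.0 (SE 0.14, adjusted p = 0.0059). Ccng2 (cyclin G2) fell by 0.73 (adjusted p = 0.0126), Sesn1 by 0.57 (adjusted p = 0.0328), Pik3ip1, an inhibitor of PI3 kinase, by 0.57 (adjusted p = 0.0154) and Bcl6 by 0.48 (adjusted p = 0.0337). Klhl24, a ubiquitin ligase adaptor whose known target in keratinocytes is keratin 14, had -0.21, -0.18 and -0.22 in KO 6 h arrays, against 0.82, 1.13 and 1.13 in KO 0 h arrays. It fell by 1.23 (SE 0.15, adjusted p = 0.00425), and its stripped arrays lay almost on top of each other. Arrdc3, an arrestin-domain adaptor, fell by 1.28 (adjusted p = 0.0127).

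Few cell division genes passed at 6 h. In the list of replication genes 23 of 34 lay above 0, where 12469 of all 22180 genes did, with a median of 0.16. Of the 34 genes 1 (2.94%) rose past the threshold, against 1.59% of all genes. It was Mcm2, a subunit of the replicative helicase, with 0.16, 0.22 and -0.32 in KO 6 h arrays, against -0.66, -0.46 and -0.48 in KO 0 h arrays. All stripped arrays were higher, and the rise was 0.55 (SE 0.13, adjusted p = 0.0298), a call lost in 5 of the 6 fits without 1 array. In the list of G2 and mitosis genes 34 of 35 lay below 0, where 9711 of all 22180 genes did, with a median of -0.31. Of the 35 genes 1 (2.86%) fell past the threshold, against 3.53% of all genes. It was Cdc25b, the phosphatase that starts mitosis, with a fall by 0.46 (adjusted p = 0.0125). The mean over the G2 and mitosis list was -0.44, -0.28 and -0.19 in KO 6 h arrays, against 0.07, -0.05 and 0.04 in KO 0 h arrays. In WT 0 h arrays it was 0.30, -0.35 and 0.05, a wide spread among unstressed arrays.

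Signals of the WNT and BMP pathways formed the other large group among the falls. R-spondins bind LGR receptors and strengthen WNT signals. Of 40 measured genes in this list 9 fell, against 3.53% of all genes, and 1 rose, with a median of -0.27. Rspo3, the R-spondin ligand, had -0.84, -0.56 and -0.82 in KO 6 h arrays, against 0.74, 0.85 and 0.38 in KO 0 h arrays, and fell by 1.39 (SE 0.20, adjusted p = 0.0059). Sostdc1, a secreted inhibitor of BMP and WNT ligands, had -1.06, -0.85 and -1.03 in KO 6 h arrays, against 0.08, 0.43 and 0.13 in KO 0 h arrays, and fell by 1.19 (SE 0.16, adjusted p = 0.0059). Neither gene had overlapping groups, and both calls held without any one array. The receptor gene Lgr4 fell by 0.66 (adjusted p = 0.00991) and Dkk3 by 0.44 (adjusted p = 0.0163). Axin2, a feedback target of WNT, fell by 0.77 (adjusted p = 0.0122) on its more variable row, while its other row had a difference of 0.09 (adjusted p = 0.722). Wnt4, a ligand, was the member that rose, by 0.45 (adjusted p = 0.015).

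Some receptor genes of epithelial cytokines fell. Of 36 measured genes in the list of other cytokines and receptors 5 fell, against 3.53% of all genes, and none rose. Of the 36, 21 lay above 0, where 12469 of all 22180 genes did, and the median was 0.03. Il22ra1, the receptor chain through which keratinocytes sense interleukin 22, had -0.70, -0.55 and -0.76 in KO 6 h arrays, against 0.04, 0.31 and 0.11 in KO 0 h arrays, and fell by 0.82 (SE 0.10, adjusted p = 0.00425). Il20rb, a chain shared by receptors of interleukins 19, 20 and 24, had -0.62, -0.54 and -0.86 in KO 6 h arrays, against 0.03, 0.55 and 0.11 in KO 0 h arrays, and fell by 0.90 (SE 0.15, adjusted p = 0.0095). Both falls held without any one array. Its partner chain Il20ra fell by 0.59 (adjusted p = 0.02), Il6ra by 0.60 (adjusted p = 0.0197) and the cytokine Il15 by 0.72 (adjusted p = 0.0109). Il31ra, a chain of the itch cytokine receptor, fell by 1.30 (adjusted p = 0.0485). Of 22 chemokines 1 (4.55%) passed, where 5.12% of all genes did. It was Cxcl10, a chemokine induced by interferon, with a fall by 0.85 (adjusted p = 0.0168). Irf1, a transcription factor of the interferon response, fell by 1.28 (adjusted p = 0.0269). The whole interferon list did not follow Cxcl10 and Irf1: 2 of 41 rose and 2 fell, against 1.59% and 3.53% of all genes. Its median was 0.03.

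A few immediate early genes fell. Of 14 AP-1 genes 5 lay above 0 and 2 fell, against 3.53% of all genes, namely Fos by 0.69 (adjusted p = 0.0397) and Junb by 0.47 (adjusted p = 0.0188). Fos had -0.23, -0.64 and -0.82 in KO 6 h arrays, against -0.13, 0.12 and 0.38 in KO 0 h arrays, and the nearest arrays of the groups almost met. Of 37 other immediate early genes 5 fell, against 3.53% of all genes, 1 rose, against 1.59%, and 11 lay above 0. Egr1 fell by 0.59 (adjusted p = 0.023) and Zfp36, which speeds decay of cytokine mRNAs, by 0.57 (adjusted p = 0.018). The gene that rose was Dusp6, a phosphatase of ERK, by 0.61 (adjusted p = 0.0458), with 0.34 on its other row (adjusted p = 0.0515).

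Genes of late differentiation and of the barrier fell in part. The next list held 33 genes of the cornified envelope and differentiation, without the small proline-rich and late envelope families. Of these 5 fell, against 3.53% of all genes, and none rose, with a median of -0.13. Flg2, a filaggrin-like granule protein, had -0.98, -0.67 and -0.39 in KO 6 h arrays, against 0.20, 0.55 and 0.41 in KO 0 h arrays, and fell by 1.06 (SE 0.20, adjusted p = 0.0126). Calml3, a calmodulin-like protein of epithelia, had -0.54, -0.61 and -0.45 in KO 6 h arrays, against 0.05, 0.03 and 0.01 in KO 0 h arrays, and fell by 0.56 (SE 0.08, adjusted p = 0.0059). The groups were apart in both, and in Calml3 the arrays of each group lay close together. Ppl (periplakin) fell by 0.49 (adjusted p = 0.0122), Scel (sciellin) by 0.55 (adjusted p = 0.0258) and the keratin Krt77 by 0.41 (adjusted p = 0.0328). The late cornified envelope family gave no call among 18 measured genes, although 17 lay above 0 (median 0.27). Its median was 0.51 for label numbers from 3000 up and 0.06 below. Among 28 differentiation transcription factors 4 fell, against 3.53% of all genes. Hes1, a Notch target of spinous layer cells, had -0.30, -0.25 and -0.52 in KO 6 h arrays, against 0.36, 0.78 and 0.44 in KO 0 h arrays, and fell by 0.88 (SE 0.15, adjusted p = 0.00991). Gata6 fell by 0.56 (adjusted p = 0.015) and the receptor gene Notch3 by 0.55 (adjusted p = 0.0199). Gata3 fell by 0.49 on one row (adjusted p = 0.0453), with -0.02 on its other row (adjusted p = 0.924).

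A few lipid and junction genes fell as well. Of 39 ceramide and barrier lipid genes 20 lay above 0, where 12469 of all 22180 genes did. In this list 3 (7.69%) fell, against 3.53% of all genes: Lipm, an epidermal lipase, by 0.90 (adjusted p = 0.00804), Acer1, an alkaline ceramidase, by 0.71 (adjusted p = 0.0059) and Cers6, a ceramide synthase, by 0.65 (adjusted p = 0.0106). Alox12e, an epidermal lipoxygenase, had -0.44, -0.52 and -0.60 in KO 6 h arrays, against 0.53, 0.52 and 0.80 in KO 0 h arrays, and fell by 1.14 (SE 0.20, adjusted p = 0.0116). The groups lay far apart, on opposite sides of 0. The claudin gene Cldn8 fell by 0.70 (adjusted p = 0.0172) as 1 of 3 among 22 tight junction genes, against 3.53% of all genes. Of these 22 genes 20 lay below 0, where 9711 of all 22180 genes did. The desmosomal cadherin Dsc1 fell by 0.64 (adjusted p = 0.013), and Klk5, a protease of corneocyte shedding, by 0.73 (adjusted p = 0.0122). Skint2 and Skint7, of a keratinocyte family that supports resident T cells, fell by 1.22 (adjusted p = 0.0107) and 1.22 (adjusted p = 0.021). Their copies are close in sequence and may share probes. Heat shock genes, the circadian clock, cholesterol synthesis and metallothioneins had no member past the threshold among 19, 19, 19 and 12 measured genes.

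Ahr itself had -0.63, -0.65 and -0.77 in KO 6 h arrays, against -0.13, 0.04 and -0.02 in KO 0 h arrays, and fell by 0.65 (SE 0.14, adjusted p = 0.0209). Set against WT, it differed by -1.11 at 6 h (adjusted p = 0.00549) and by -0.32 at 0 h (adjusted p = 0.556). Where the array's probes lie relative to the deletion is unknown here, so this row cannot serve as a check of the knockout. Of 14 measured AhR target genes only Cyp1b1 passed, with -0.60, -0.55 and -0.38 in KO 6 h arrays, against -0.02, 0.34 and 0.37 in KO 0 h arrays and a fall by 0.74 (adjusted p = 0.02). Cyp1a1, the classic target, had a difference of 0.20 (adjusted p = 0.417), and the list's median was 0.00. The letters GCGTG, the core of the sequence AhR binds, were in 39.4% of the promoters of genes that rose, 42.6% of those of genes that fell and 34.2% of those of all genes tested. Median GC content was 58.6%, 59.2% and 55.6% in the same 3 sets, and its part in these shares was not tested.

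Markers of other cell types passed in several lists. Of 23 epidermal T cell markers 2 rose, against 1.59% of all genes: Thy1, a surface protein of T cells and fibroblasts, by 1.17 (adjusted p = 0.0119) and Rgs1 by 0.47 (adjusted p = 0.0451). The list's median 6 h difference was 0.20 for label numbers from 3000 up and -0.06 below. Between KO and WT at 0 h its median difference was -0.54. The mean of that list was -0.24, -0.14 and -0.01 in KO 6 h arrays, against -0.02, -0.40 and -0.57 in KO 0 h arrays, and the groups overlapped. Of 21 Langerhans cell and MHC class II genes only Mfge8 rose, by 1.27 (adjusted p = 0.00944), where 1.59% of all genes did. The list's means were 0.13, 0.03 and 0.05 in KO 6 h arrays, against -0.03, -0.23 and -0.45 in KO 0 h arrays, without overlap. For this list the median 6 h difference was 0.52 for label numbers from 3000 up and 0.04 below. Its median difference between KO and WT at 0 h was -0.23. Mfge8 bridges dying cells to phagocytes. At 0 h it was lower in KO than in WT, with a difference of -2.01 (adjusted p = 0.000606), and at 6 h the KO arrays (0.18, -0.21 and -0.31) still lay below 2 of the 3 WT arrays (0.37, -0.01 and 0.76). None of 19 neutrophil markers passed. Their means were 0.38, 0.03 and 0.08 in KO 6 h arrays, against -0.01, -0.07 and -0.13 in KO 0 h arrays, all higher after stripping, with replicate 1 far ahead, the array in which the wound keratins were also highest. S100a8, an alarmin made by neutrophils and stressed keratinocytes, had 1.82, -0.15 and 0.33 in KO 6 h arrays, against 0.21, -0.19 and -0.11 in KO 0 h arrays (difference 0.69, adjusted p = 0.305). Of 20 monocyte and macrophage genes the complement genes C1qa and C1qb rose by 0.54 (adjusted p = 0.0234) and 0.92 (adjusted p = 0.0196), and Arg1 fell by 0.83 (adjusted p = 0.0333). Of 27 hair follicle genes 4 (14.8%) fell, against 3.53% of all genes, Krt24 with the smallest p (difference -0.76, adjusted p = 0.015). Of 16 dermal fibroblast genes 2 rose, Thy1 and Vim, against 1.59% of all genes, and the list's median was 0.05. Endothelial, muscle, fat and mast cell lists had no call. The part of other cells in the gene groups above was not tested.

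The same 6 h step in WT epidermis gave no row past the threshold (0.00%), with 1086 rows at an unadjusted p under 0.05 and a smallest adjusted p of 0.229, against 4877 unadjusted in KO. In WT, replicates 2 and 3 have label numbers below 3000 and replicate 1 from 3000 up, both at 6 h and at 0 h. The KO step therefore changes the share of the number classes, and the WT step does not. Comparisons of KO with WT at 0 h, and of their 6 h responses, thus partly coincide with the label number. Whether the genotypes differ was tested directly, as the KO difference minus the WT difference. In that test 172 rows (0.731%) passed, 55 higher and 117 lower. With the label number split as a block 145 rows passed, 115 of them among the 172. Of the rows that had risen or fallen in KO, 47 of 370 and 113 of 802 passed the main test in the same direction. That test contains the KO difference by which these rows were chosen, so the shared direction is favoured by the choice. Fbxo32 had a KO minus WT difference of responses of -1.89 (adjusted p = 0.00288), from -1.39 in KO and 0.50 in WT. For Il22ra1 it was -1.23 (adjusted p = 0.00465), from -0.82 in KO and 0.41 in WT. Both KO responses were falls and both WT differences lay above 0. Rspo3 (-1.83, adjusted p = 0.0181), Sostdc1 (-1.51, adjusted p = 0.0181) and Calml3 (-0.73, adjusted p = 0.0181) also differed. Hs3st6, a heparan sulfate sulfotransferase, had responses of opposite sign, -0.70 in KO and 0.67 in WT, and a difference of -1.37 (adjusted p = 0.0166). Among genes that rose in KO, the difference was 2.28 for Rab31 (adjusted p = 0.033), 3.50 for Krt16 (adjusted p = 0.0391), 3.52 for Gsta4 (adjusted p = 0.047), 1.29 for Utp4 (adjusted p = 0.0323) and 1.13 for Mcm2 (adjusted p = 0.0241). Clec7a, the beta-glucan receptor dectin-1, differed by 0.91 (adjusted p = 0.0166) and Ctsz, a cathepsin, by 0.89 (adjusted p = 0.0293).

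For several of the largest rises in KO the difference between genotypes did not pass. Krt6b had a difference between genotypes of 3.81 (adjusted p = 0.127), with WT values of -1.40, -1.24 and -0.01 at 6 h and -1.60, -0.81 and 0.01 at 0 h. Unstressed WT replicate 1 was low like the KO arrays, while WT replicates 2 and 3 lay well above it before any stripping. The pattern was alike in Stfa1, with -0.72, -1.14 and -1.46 in WT 6 h arrays, against -1.98, -0.31 and 0.50 in WT 0 h arrays. WT 0 h replicate 1 has a label number from 3000 up, as have KO 0 h replicates 2 and 3. WT 0 h replicates 2 and 3 have numbers below 3000, as has KO 0 h replicate 1, the highest KO 0 h array in both genes. The part of the label number in this pattern was not tested. The count of rows that differed between genotypes moved with single arrays: it was 50, 2 and 39 without KO 0 h replicate 1, 2 or 3, 749, 13 and 14 without WT 0 h replicate 1, 2 or 3, 185, 109 and 31 without KO 6 h replicate 1, 2 or 3, and 441, 25 and 24 without WT 6 h replicate 1, 2 or 3. In 3 of the lists, the median WT difference was -0.14 for ribosome biogenesis, 0.09 for the FOXO-type list and 0.07 for the WNT and BMP list, none of them in the direction seen in KO. For splicing and RNA helicases the median was -0.23 in KO and -0.24 in WT, and for the circadian clock -0.21 in KO and -0.18 in WT, of 1 sign in both. Within label numbers the difference between genotypes gave 198 rows below 3000 and 0 from 3000 up, where each 6 h group holds 1 array.

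At 24 h the same KO 0 h arrays serve as the baseline, so the 2 time points are given side by side and are not independent. Against KO 0 h, 2249 rows (9.56%) passed at 24 h. Of the 370 rows that rose at 6 h, 347 were above 0 and 137 passed at 24 h; of the 802 that fell, 778 were below 0 and 419 passed. A direct comparison of 24 h with 6 h, which does not use the baseline, gave 292 rows (1.24%). Of these, 23 were among the rows higher and 37 among the rows lower at 6 h. The comparison of 24 h with 6 h shares the KO 6 h arrays by which those rows and the genes below were chosen. That choice favours steps back towards 0. KO 24 h replicates 1, 2 and 3 all have label numbers from 3000 up, while KO 6 h replicates 2 and 3 lie below 3000. The step from 6 h to 24 h therefore partly coincides with the label number, whose part in the steps below was not tested. Krt6b stood at 5.34 at 24 h (adjusted p = 0.00204) after 3.73 at 6 h, and the step between them did not pass (adjusted p = 0.397). Vim stood at 0.13 at 24 h and was lower than at 6 h by a difference of -0.51 (adjusted p = 0.0207). Itgb1, likewise, stood at -0.18 at 24 h, with a step of -0.65 (adjusted p = 0.0183). Several falls at 6 h were smaller at 24 h: the step from 6 h to 24 h was 0.91 for Sostdc1 (adjusted p = 0.0183), 0.65 for Acer1 (adjusted p = 0.0126), 0.66 for Cdc25b (adjusted p = 0.00592), 0.47 for Calml3 (adjusted p = 0.0136), 0.58 for Notch3 (adjusted p = 0.0317) and 0.52 for Il22ra1 (adjusted p = 0.0238). Klhl24 (-1.46, adjusted p = 0.000663) and Cdkn1b (-0.95, adjusted p = 0.00207) were also lower at 24 h than at 0 h.

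**Figure D4:**
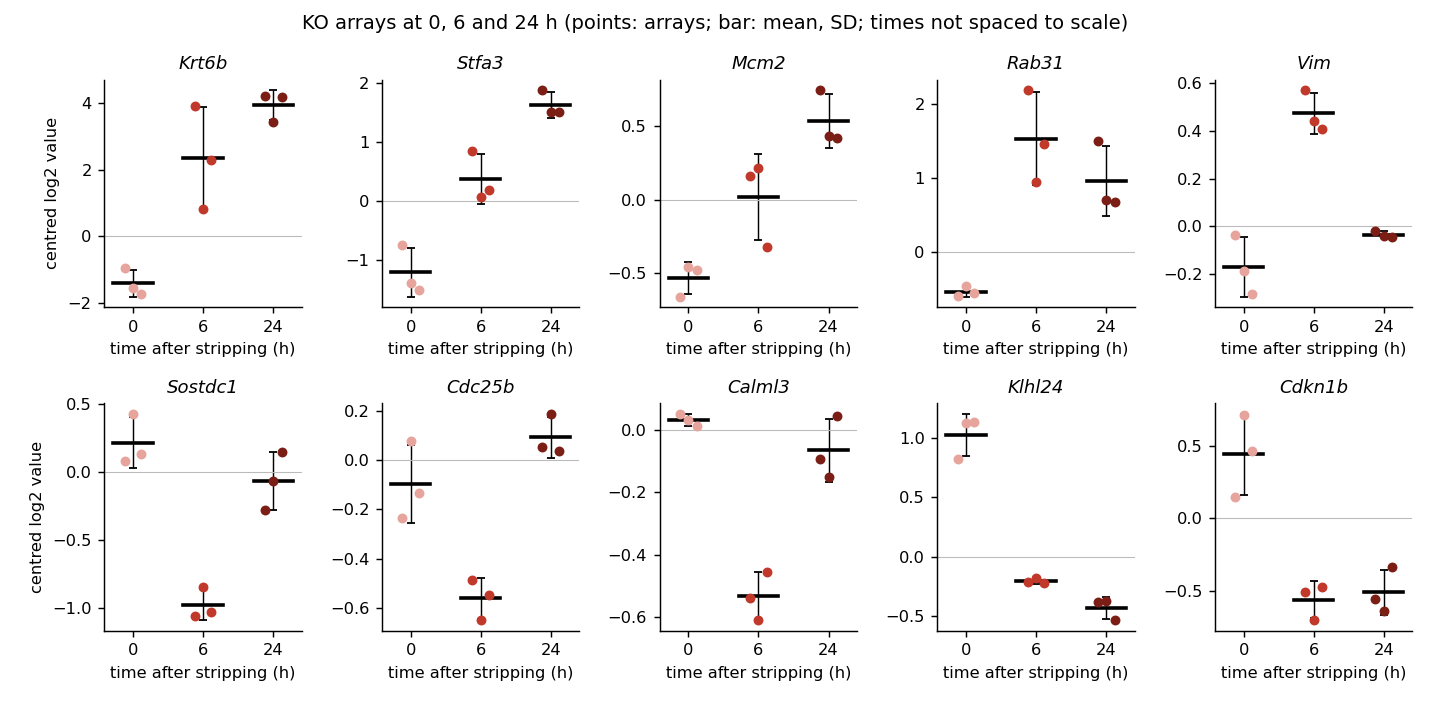
Centred log2 value (y axis) in each KO array at 0, 6 and 24 h after stripping (x axis, not to scale) for 10 genes; points are arrays, bars the mean and SD of 3 arrays. Krt6b, Stfa3 and Mcm2 have their highest means at 24 h, Rab31 and Vim at 6 h, and Sostdc1, Cdc25b and Calml3 their lowest at 6 h.

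The size of the response differed between the label number classes. For numbers from 3000 up, where KO 6 h replicate 1 is set against KO 0 h replicates 2 and 3, Krt6b differed by 5.53, Gsta4 by 3.99, Sprr1b by 3.51 and Mmp3 by 2.57. Below 3000, where KO 6 h replicates 2 and 3 are set against KO 0 h replicate 1, the same genes differed by 2.49, 2.41, 1.75 and 0.74. Among genes that fell, Fbxo32 differed by -1.44 from 3000 up and -1.23 below, Rspo3 by -1.45 and -1.43, Flg2 by -1.46 and -0.72, and Skint7 by -1.84 and -0.69. Each class has a single array on one side of the comparison, and class and single arrays cannot be told apart. In fits within a class, 975 rows passed from 3000 up and 1 below 3000. Of the 117 genes named that passed, here or under the additional observations, 33 kept their call when any one of the 6 KO arrays was left out. Among those that rose they were Krt16, Gsta4, Rab31, Aqp3, Utp4, Nip7, Wdr12, Eef1e1, Creld2, Dnajb11, Vim, Thy1, Mfge8, Clec7a and Ctsz. Among those that fell they were Fbxo32, Klhl24, Cdkn1b, Slitrk6, Mxd4, Rspo3, Sostdc1, Lgr4, Hes1, Calml3, Il22ra1, Il20rb, Acer1, Cers6, Lipm, Alox12e, Klk5 and Skint2. Krt6a, Guca2a, Calr and Me1 passed in none of these 6 fits, and the other named genes lost their call in at least 1 of them.

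**Figure D5:**
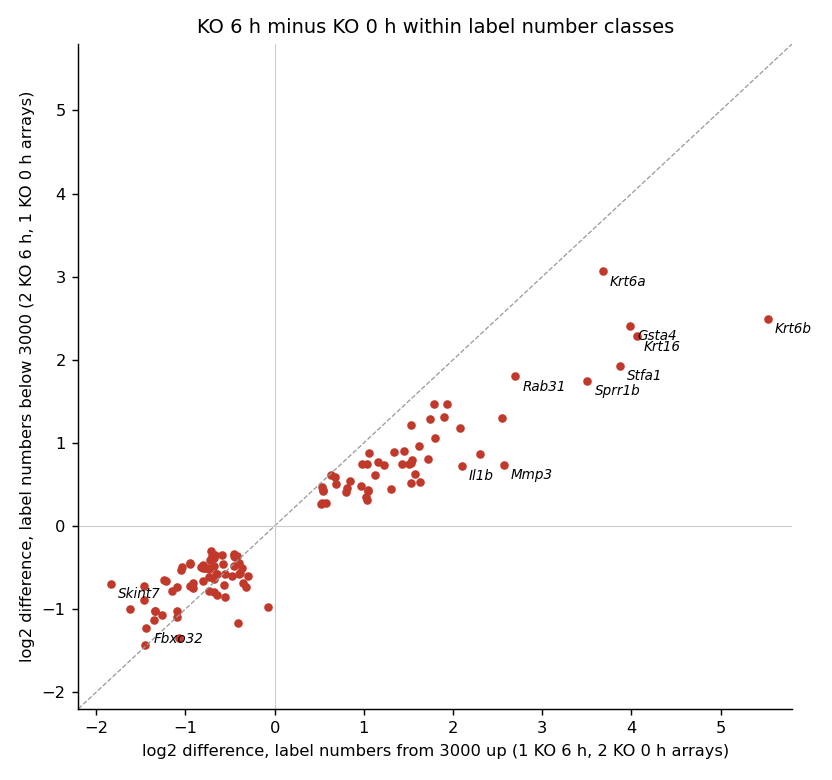
Log2 difference of KO 6 h minus KO 0 h for the named genes that passed, computed within label numbers from 3000 up (x axis) and below 3000 (y axis); the dashed line marks equal values. The labelled keratin, stefin and protease genes lie below the line. The genes were chosen by the call over all arrays, which fixes the sign in both classes wherever the KO groups do not overlap.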

How the data were processed

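Epidermal RNA was labelled with biotin as cDNA and read on 18 Affymetrix arrays, 3 per group, per the labels' protocols. The authors deposited 1 table, 33793 rows by 18 arrays, taken here as log2 values, whose row medians are 0 within 1e-06 in 100% of rows. Values run from -6.40 to 4.30. The base of the log was inferred from this range, which a natural log would also fit; all differences would then be larger by 1 common factor. How the authors corrected, summarised and normalized the arrays was not stated in the labels or the file. Centring leaves no signal over background, so dim rows stay in every count, and the number of arrays limits the precision. Names came from the platform annotation: a single symbol for 23521 rows, more than one for 1814 and none for 8458. In all 1082 genes had several rows. List counts use 1 row a gene, so they depend on that choice. For some genes counted as passed, another row did not pass. In 1 of them the row used had a KO 6 h difference of 0.81 and the other -0.02 (adjusted p = 0.894 from limma). Some other genes passed only on a row not used.

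A model with 6 group means was fitted to all 18 arrays with limma 3.58.1 in R 4.3.3 (12 residual and 2.76 prior degrees of freedom), with 2-sided moderated tests and Benjamini-Hochberg adjustment over the 23521 rows at 0.05. An exact test on single values of 3 against 3 arrays cannot go below p = 0.1. P-values measure the spread between these arrays, each taken as 1 mouse since the design text speaks of littermates per time point. The fit was tested on simulated data. Genes named are Ahr, the 15 largest changes in each direction, the smallest p values within each list (6 at most), and the 10 smallest p in each direction of the genotype difference, less those left out for length; Krt17, S100a8, Hspa5, Ddit3, Calr, Pdia6, Canx, Dnajc3, Hsp90b1, Syvn1 and Col17a1 fall outside that rule and were chosen after their values were seen. The members and the 56 lists (1257 of 1379 genes measured) were chosen with earlier results of these data known. Replicate numbers were not used to pair samples in the main fit. Deviations of same-numbered arrays correlated between -0.46 and 0.25, and those of differently numbered arrays between -0.33 and 0.46. Deviations within a group of 3 sum to 0, so these values cannot exclude pairing. Alternatives covered normalization, row filters, fit options, blocks, label number classes and leaving out each array.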

Additional observations from a re-analysis of the deposited data

Results flagged for a closer look

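The 6 h response of 35 named genes differed between KO and WT in the test of the difference itself. The values are the KO difference minus the WT difference in log2 units, each with an adjusted p under 0.05 in the all-array model. Groups of 3 arrays are too small to single out one array within a group.

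On the lower side were 17 genes. The difference was -1.89 for Fbxo32, -1.06 for Cdkn1b, -1.27 for Klhl24, -0.75 for Pik3ip1 and -0.96 for Mxd4. It was -1.83 for Rspo3, -1.51 for Sostdc1, -1.01 for Axin2 on the row used, -1.23 for Il22ra1, -1.17 for Il20rb, -0.91 for Egr1 and -1.46 for Slitrk6. Barrier and differentiation genes had -0.73 for Calml3, -0.72 for Acer1, -1.06 for Cldn8 and -0.81 for Gata6, and Hs3st6 had -1.37.

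On the higher side, the difference was 3.50 for the wound keratin Krt16, 3.52 for Gsta4, 2.28 for Rab31, 1.70 for Aqp3, 1.90 for Nrg1, 1.78 for Capn2 and 0.76 for Vim. Genes of growth and protein synthesis had 1.29 for Utp4, 0.82 for Gar1, 1.15 for Nars, 0.96 for Ctps, 0.94 for Slc7a1, 1.02 for Dnajb11 and 1.13 for Mcm2. It was 1.53 for Mfge8 of the Langerhans cell list, 0.84 for Rgs1 of the T cell list, 0.91 for Clec7a and 0.89 for Ctsz. Of the 35, only Fbxo32 and Il22ra1 passed without any one of the 12 arrays of the 6 h and 0 h groups.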

How the results depend on the processing

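The KO 6 h count of 1172 rows was 1856 with array weights, 661 in a fit on the 6 arrays alone, 1 within label numbers below 3000 and 159 to 1326 when 1 array was left out. The replicate number as a block gave 926 rows, and fits on the 9 KO arrays, added after the data were seen, gave 1252. The genotype difference, 172 rows, was 79 with all rows of the table, 429 with the more variable rows, 47 with limma's trend and robust options, 864 with array weights, 72 in a fit on the 12 arrays alone, 49 with the replicate block, 0 within label numbers from 3000 up (1772 rows at an unadjusted p under 0.05) and 2 to 749 with 1 array left out. The WT 6 h count of 0 (1086 unadjusted) became 1 below 3000 and 6 from 3000 up and stayed 0 in its other alternatives. The causes were not tested. Of the 117 named genes that passed, none passed in all 18 alternatives, since 1 row passed below 3000. Of the 56 list medians, 37 kept their sign throughout; signal over background is unknown.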

Other observations

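Some KO responses lay outside the groups described above. Aldh1a3, an enzyme of retinoic acid synthesis, rose by 1.0 (adjusted p = 0.0274), with 0.82, 0.53 and 0.73 in KO 6 h arrays, against -0.11, -0.40 and -0.40 in KO 0 h arrays; it was the only one of 31 measured retinoid genes to pass. Defb3, a beta-defensin, rose by 0.96 (adjusted p = 0.0291), while Pglyrp4, a peptidoglycan recognition protein, fell by 0.57 (adjusted p = 0.0395), the 2 calls among 24 antimicrobial and alarmin genes. Serpinb1a, an inhibitor of neutrophil serine proteases, rose by 1.25 (adjusted p = 0.0488). Nlrp10 and Gsdma3, of the inflammasome and gasdermin families, fell by 0.83 (adjusted p = 0.0184) and 0.76 (adjusted p = 0.049). Slitrk6, a transmembrane protein with leucine-rich repeats, fell by 1.33 (adjusted p = 0.0059), with -0.40, -0.14 and -0.18 in KO 6 h arrays, against 0.84, 1.40 and 1.04 in KO 0 h arrays. Trpv6, a calcium channel, fell by 0.82 (adjusted p = 0.0126) and Ddit4, an inhibitor of mTOR signalling, by 0.79 (adjusted p = 0.0188). NRF2 targets, a stress programme to which Gsta4 is often assigned, gave 2 falls, Me1 by 0.47 (adjusted p = 0.0458) and Ephx1 by 0.48 (adjusted p = 0.0406), and no rise among 24 genes.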
